A study of Mus musculus with 23 samples.

Results

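The genes described here are 35 members of the machinery of inflammatory and programmed cell death (inflammasomes, apoptosis and necroptosis), chosen by name from the 52636 genes of the deposited tables. RNA was sequenced from mouse BMDMs (macrophages differentiated in culture from bone marrow) in 12 libraries labelled Stk40 KO and 11 labelled Stk40 WT. Stk40 encodes a pseudokinase. Cells were untreated (T0) or exposed to lipopolysaccharide (LPS), a component of the outer membrane of Gram-negative bacteria, and collected at T6, T16 and T32, with no unit stated for the time. There were 3 libraries for each genotype and time point, and 2 for WT T16. The replicate numbers used below were assigned by order in the series within each group. Equal numbers in different groups therefore do not mark libraries that belong together. The labels give no strain, age, sex or allele, and do not say how the knockout was made or whether libraries came from separate mice, so the p-values below reflect variation among these libraries that may be technical. All 35 members were found by symbol and passed the filter on low counts, as did 15782 genes in all.

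Inflammasomes are protein platforms on which sensors such as NLRP3, NLRC4 with the NAIP proteins, and NLRP1B recruit the adaptor ASC (Pycard) and activate caspase-1. Caspase-1 and caspase-11 (the product of mouse Casp4) cleave gasdermin D, which then forms pores in the plasma membrane, and NINJ1 later ruptures the membrane. Death receptors and Toll-like receptors signal through FADD, TRADD and RIPK1 to caspase-8, which drives apoptosis and restrains necroptosis; without caspase-8 activity, RIPK1 or ZBP1 engages RIPK3 and its substrate MLKL. Mitochondrial apoptosis is set by the balance of the BCL-2 family, and macrophages are known to raise many of these genes after LPS through NF-kappaB and interferon signalling.

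The libraries held 19455080 to 44097733 counts. All 8 macrophage markers examined (among them Csf1r, Adgre1 and Cd68) were present, with a summed level of 14320 to 29843 TMM-scaled CPM (counts scaled by library size and the TMM factor), whereas the 9 markers of T, B and NK cells together reached at most 3.74 CPM. Stk40 RNA itself was not lower in the libraries labelled KO, at 51.7 to 61.3 CPM against 39.7 to 52.5 CPM in WT at T0. It was higher without overlap at T6 (354 to 388 CPM against 281 to 335 CPM) and T16 (155 to 166 CPM against 96.0 and 143 CPM). The same held at T32 (102 to 107 CPM against 69.05 to 99.0 CPM). Counts summed over a gene do not show the loss of single exons. The genotypes are therefore those of the labels, as is the direction of each difference. Some libraries stood apart: mitochondrial genes took 0.35% of counts in KO-labelled T0 replicate 1 (1.38% to 1.82% in the other T0 libraries), replicate 2 of both genotypes at T6 had 0.68% and 1.1% (0.35% to 0.47% in the others), and in WT T16 replicate 2 the 10 most abundant genes took 17.39% of counts. Y-linked transcripts were found in 4 WT libraries (replicate 2 at T0 and T16, replicate 1 at T6 and replicate 3 at T32) and in none labelled KO at a comparable level. That is 1 WT library at each time, and the labels do not say whether libraries of different times share mice; the tests treat all 23 as independent, so p-values of an average over times may be too small if they do.

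Levels per gene length were compared with the deposited size-factor-adjusted RPKM (nRPKM). Before LPS the most abundant member was Mcl1, which encodes a short-lived survival protein, at 308 ± 28.9 nRPKM in libraries labelled KO and 232 ± 13.4 nRPKM in WT (SD, n = 3 each). Ninj1 followed at 215 ± 49.0 and 201 ± 44.1 nRPKM, and Bax, a pore-forming effector of apoptosis, at 157 ± 22.6 and 179 ± 18.2 nRPKM. The gaps from Mcl1 to Ninj1 and from Ninj1 to Bax were within the SD of Ninj1 in WT, and the gap from Mcl1 to Ninj1 was wider than both SDs in libraries labelled KO. At T6 the order had changed in both genotypes: Casp1 led at 556 ± 98.6 nRPKM in libraries labelled KO and 457 ± 73.1 nRPKM in WT, followed by Zbp1 at 487 ± 13.9 and 433 ± 43.0 nRPKM and Mcl1 at 401 ± 44.6 and 394 ± 64.2 nRPKM. The gap between Casp1 and Zbp1 was within the SD of Casp1 in both genotypes, and the gap between Zbp1 and Mcl1 was within the SD of Mcl1 in WT but wider than both SDs in libraries labelled KO. Bcl2, the founding survival gene of its family, was the lowest member in both genotypes at T0 and T6, at 0.147 ± 0.0570 nRPKM in libraries labelled KO and 0.166 ± 0.0610 nRPKM in WT at T0.

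**Figure D1:**
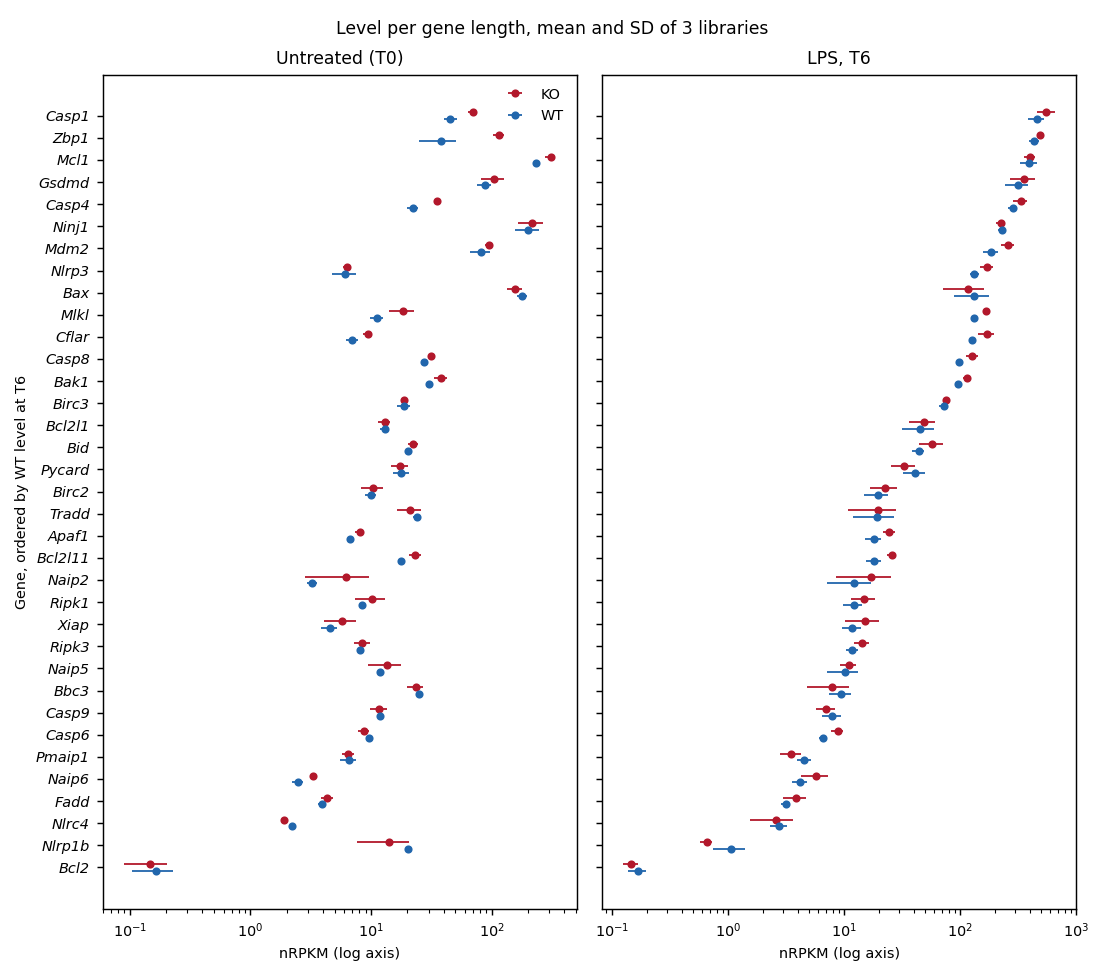
Level of each of the 35 members per gene length (nRPKM, log axis) in untreated cells and at T6, as mean and SD of 3 libraries labelled KO (red) and 3 labelled WT (blue), with the gene of highest WT level at T6 on top. Casp1 and Zbp1 head the T6 panel, and Bcl2 lies lowest in both panels.

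LPS raised most of the members at T6 in both genotypes. In libraries labelled KO, 21 of 35 members rose and 4 fell at T6 relative to T0, where 58.6% of all genes tested were called (26.2% higher and 32.4% lower); a gene was called at an edgeR adjusted p under 0.05. In WT, 22 rose and 6 fell, against 59.1% of all genes (27.3% higher and 31.9% lower). The median log2 fold change of the members was 0.82 in libraries labelled KO and 0.89 in WT, beside -0.17 and -0.14 over all genes tested. The split depends on the scaling: scaling each library by its total count moved the all-gene median to -1.0 and -0.94, and the members split 14 higher and 13 lower in libraries labelled KO and 13 and 13 in WT. In bulk RNA, fewer cells of a type and less RNA per cell cannot be told apart. Of the members, 21 rose and 4 (Nlrp1b, Casp9, Bbc3 and Pmaip1) fell in both genotypes, which share no libraries. The share of all genes called alike in both genotypes was not counted, so these counts are not read as particular to the members. In WT alone, Mcl1 rose and Casp6 and Fadd fell; the difference between genotypes in these responses did not pass the test for any of the 3. The fall of Fadd (-0.40, edgeR adjusted p = 0.046) was not called in 17 of 31 alternatives (edgeR adjusted p up to 0.15).

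Nlrp3, whose product senses membrane damage and ion flux, rose most. It had 736, 640 and 822 CPM at T6 in libraries labelled KO, against 27.5, 31.5 and 29.0 CPM at T0. In WT it had 548, 570 and 643 CPM at T6, against 27.1, 35.2 and 22.8 CPM at T0. No T6 library overlapped a T0 library, and the log2 fold change was 4.64 ± 0.23 (SE) in libraries labelled KO and 4.37 ± 0.23 in WT (edgeR adjusted p = 2.6e-12 and 5.1e-12). It was still raised at T32, by 1.89 and 1.67.

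Cflar, which encodes cFLIP, a catalytically inactive relative of caspase-8 that controls it, was close behind. It had 1295, 1295 and 1667 CPM at T6 in libraries labelled KO, against 91.6, 76.7 and 86.6 CPM at T0. In WT it had 1067, 1024 and 1155 CPM at T6, against 68.8, 65.7 and 55.2 CPM at T0. T6 and T0 did not overlap, and the log2 fold change was 4.06 ± 0.16 in libraries labelled KO and 4.10 ± 0.16 in WT (edgeR adjusted p = 1.1e-13 and 1.6e-13). Casp4, the sensor of intracellular LPS, had 505, 440 and 576 CPM at T6 in libraries labelled KO, against 60.6, 57.6 and 55.8 CPM at T0. In WT it had 492, 401 and 441 CPM at T6, against 41.1, 34.3 and 35.1 CPM at T0. The groups did not overlap, and the log2 fold change was 3.13 ± 0.17 in libraries labelled KO and 3.60 ± 0.17 in WT (edgeR adjusted p = 6.1e-12 and 1.6e-12).

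Nlrp1b, a sensor of pathogen proteases, moved the other way. It had 4.75, 4.30 and 3.77 CPM at T6 in libraries labelled KO, against 53, 143 and 101 CPM at T0. In WT it had 7.47, 9.08 and 4.80 CPM at T6, against 139, 141 and 149 CPM at T0. Every T6 library lay below every T0 library, and the log2 fold change was -4.53 ± 0.35 in libraries labelled KO and -4.33 ± 0.34 in WT (edgeR adjusted p = 8.3e-10 and 1.2e-09). The lowest T0 value came from KO-labelled replicate 1, whose mitochondrial share was low. Nlrp1b has close copies in the mouse genome, so its counts are uncertain where the authors' counting could split reads between them.

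Bbc3, which encodes the BH3-only killer PUMA, fell further at later times. It had 11.2, 22.1 and 12.3 CPM at T6 in libraries labelled KO, against 40.6, 53 and 52.4 CPM at T0. In WT it had 19.1, 22.5 and 14.5 CPM at T6, against 51.1, 53.5 and 52.5 CPM at T0. Again no libraries overlapped; the log2 fold change was -1.68 ± 0.24 and -1.49 ± 0.24 at T6 (edgeR adjusted p = 4.7e-06 and 2.0e-05) and reached -2.81 and -2.19 at T16 in libraries labelled KO and in WT. Casp9, the initiator caspase of the mitochondrial route, had 33.0, 23 and 31.5 CPM at T6 in libraries labelled KO, against 60.8, 44.2 and 51.7 CPM at T0. In WT it had 38.8, 26.1 and 36.2 CPM at T6, against 54.6, 49.8 and 54.3 CPM at T0. T6 lay below T0 without overlap, the log2 fold change was -0.84 ± 0.15 and -0.65 ± 0.15 (edgeR adjusted p = 6.8e-05 and 9.0e-04), and Casp9 was not called at T16 or T32 in either genotype. Casp9 overlaps Cela2a and Ctrc on the opposite strand, and the library kit does not mark strand.

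Among the other members, log2 values at T6 are given for libraries labelled KO first and WT second. Of the inflammatory effectors, Casp1 rose by 2.89 and 3.25, Gsdmd by 1.66 and 1.77 and the adaptor Pycard by 0.82 and 1.12, though with libraries scaled by totals Pycard in libraries labelled KO came to -0.02. Naip2 rose by 1.36 and 1.82. Naip6 rose by 0.69 and 0.68, which reversed to -0.15 and -0.13 with libraries scaled by totals. All 4 necroptosis genes rose: Mlkl by 3.07 and 3.48, Zbp1 by 1.98 and 3.43, Ripk1 by 0.45 and 0.45, and Ripk3 by 0.65 and 0.47, of which Ripk1 (-0.38 and -0.35) and Ripk3 (-0.20 and -0.34) reversed with libraries scaled by totals. Casp8 rose by 1.92 and 1.75, and each of the 3 inhibitors of apoptosis proteins, which are ubiquitin ligases that restrain caspases or RIPK1, rose (Birc3 by 1.91 and 1.86, Xiap by 1.28 and 1.30, Birc2 by 1.02 and 0.89). Of the BCL-2 family, Bcl2l1, which encodes the survival protein BCL-XL, rose by 1.81 and 1.72, the pore-former Bak1 by 1.48 and 1.59, and Bid, which links caspase-8 to mitochondria, by 1.26 and 1.04. Apaf1, the scaffold of the apoptosome, rose by 1.5 and 1.37, and Mdm2, the ubiquitin ligase of p53, by 1.35 and 1.11. Pmaip1, the BH3-only gene for NOXA, fell by 0.98 and 0.60. Mcl1 rose in WT by 0.68, which became -0.13 with totals, while its value in libraries labelled KO was 0.27 and not called. Scaling by totals also ended the calls on Birc2 (0.18 and 0.09) and Xiap (0.44 and 0.49) in both genotypes, on Naip2 in libraries labelled KO (0.54), and on Bid (0.24), Mdm2 (0.31) and Pycard (0.32) in WT.

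T6 held the highest mean of the 4 times for 20 of 35 members in libraries labelled KO and 18 of 35 in WT. No such count was made over all genes tested, nor one of genes called at all 3 LPS times. At T16, 16 members were higher and 5 lower in libraries labelled KO (20.4% and 23.3% of all genes, 43.7% in all), against 16 and 6 in WT (18.8% and 17.2%, 36% in all). At T32, 15 were higher and 4 lower in libraries labelled KO (18.2% and 20%, 38.2% in all), against 19 and 8 in WT (24.5% and 21.9%, 46.4% in all). With libraries scaled by totals these splits were 12 and 9 against 10 and 12 at T16, and 13 and 7 against 12 and 10 at T32. The members called at all 3 LPS times included Nlrp3, Casp1, Casp4, Mlkl, Zbp1, Cflar and Birc3, which rose, and Nlrp1b and Bbc3, which fell, in both genotypes. Bcl2l11, the gene of the BH3-only protein BIM, was not called at T6 (0.04 and -0.07) and fell at T16 (-0.98 and -1.10) and T32 (-1.10 and -1.06). Bcl2 rose late, by 1.13 in libraries labelled KO at T16 and by 1.52 in libraries labelled KO and 1.27 in WT at T32, on 119 to 184 counts a library in those labelled KO and 108 to 215 in WT at T32.

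**Figure D2:**
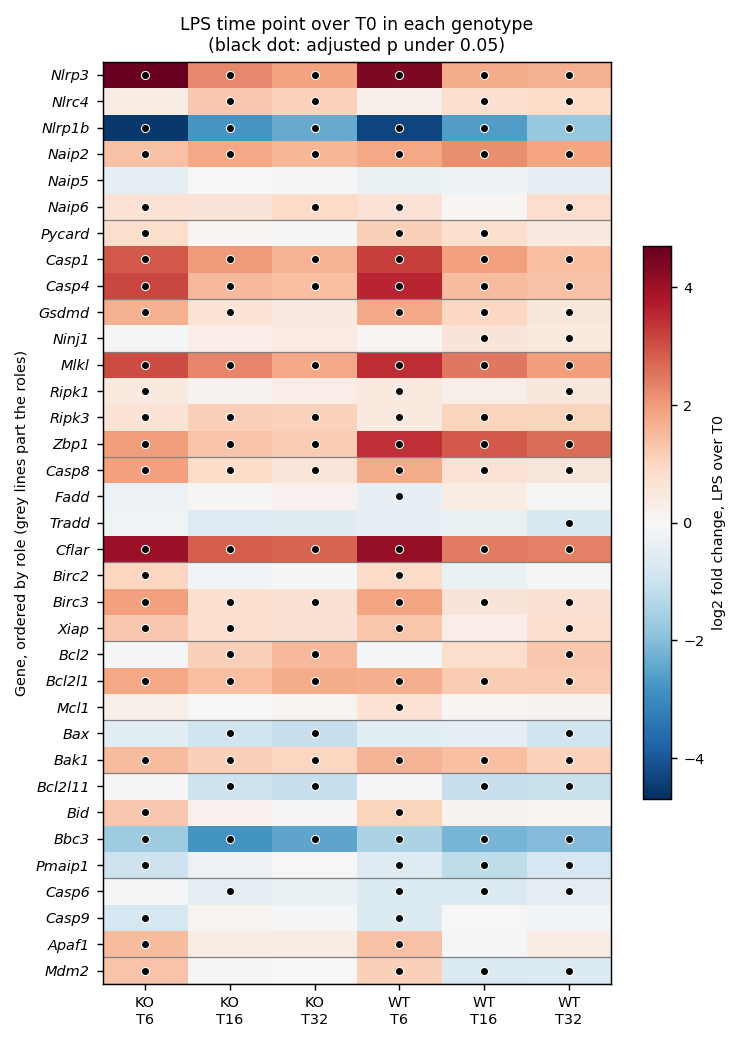
Log2 fold change of each member at T6, T16 and T32 over T0 in libraries labelled KO (left) and WT (right), with genes in rows ordered by role, rises in red, falls in blue and a black dot where the edgeR adjusted p was under 0.05. Nlrp3, Cflar and Casp4 show the deepest red and Nlrp1b the deepest blue at T6, and the Zbp1 row is paler in libraries labelled KO than in WT.

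The comparison of the genotypes asked how libraries labelled KO differ from WT at each time. On average over the 4 time points, 16 of 35 members were higher and 4 were lower in libraries labelled KO, where 22.3% of all genes tested were called (12.1% higher and 10.3% lower). Among those higher were the inflammatory caspases Casp1 and Casp4, the necroptosis genes Mlkl and Zbp1, the caspase-8 regulator Cflar, and Mdm2 and Apaf1. Of the single times, Zbp1 was called at T0 alone (1.59), so its average does not mean a lasting difference. Pycard, Nlrp1b, Bax and Bbc3 were lower. The median log2 difference of the members was 0.20, beside -0.02 over all genes tested. Under scaling by totals the all-gene median was -0.19 and that of the members 0.03, and 8 members were higher and 5 lower. With a covariate for Y-linked transcripts, 15 members were called. The share of all genes called in that fit is not given, so this count is not read as particular to the members.

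By time, the counts were small. At T0, 3 members were higher and 0 lower (1.95% of all genes called, 1.83% higher and 0.114% lower). None was called at T6, where 0.298% of all genes were called by edgeR (0.209% higher and 0.0887% lower): 9 members had an unadjusted p under 0.05 (9.45% of all genes did), and DESeq2 called 2, Bcl2l11 and Casp8. At T16, 6 were higher and 0 lower (7.64%, 4.16% and 3.48%), and at T32, 5 were higher and 1 lower (6.39%, 3.05% and 3.34%). With libraries scaled by totals the split was 5 higher and 2 lower at T16, and 4 higher and 3 lower at T32. All libraries labelled KO lay above all WT libraries for 12, 8, 16 and 15 members at T0, T6, T16 and T32 (8.79%, 5.96%, 20.4% and 17.5% of all genes), and below WT for 2, 1, 3 and 4 (6.3%, 5.08%, 21.5% and 18.6%). Mlkl, Cflar, Bcl2l11 and Apaf1 lay above WT at all 4 time points, as did 1.06% of all genes tested. WT had 2 libraries at T16, so fewer values had to be cleared there.

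**Figure D3:**
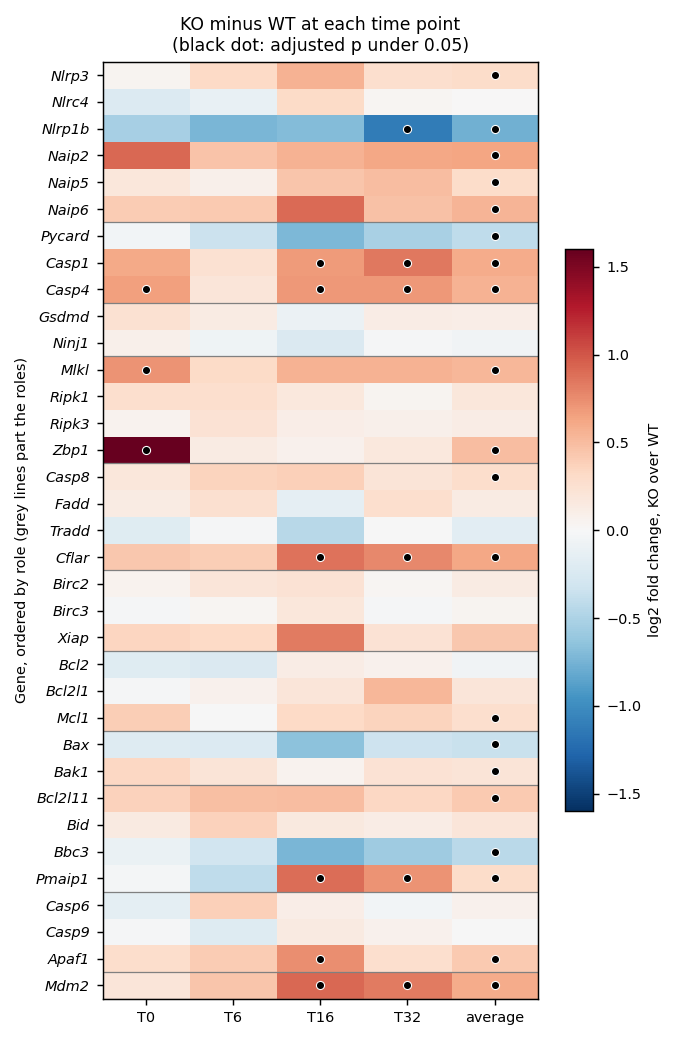
Log2 fold change of each member in libraries labelled KO over WT at T0, T6, T16 and T32 and averaged over them, with genes in rows ordered by role, higher in red, lower in blue and a black dot where the edgeR adjusted p was under 0.05. Zbp1 at T0 is the darkest cell at 1.59, no T6 cell has a dot, and Nlrp1b is blue in every column.

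Zbp1, the sensor of Z-form nucleic acids that engages RIPK3, showed the largest difference at a single time, and among the single times it was called at T0 alone. At T0 it had 316, 257 and 280 CPM in libraries labelled KO, against 90.7, 128 and 64.4 CPM in WT. No overlap was seen between the groups, and the log2 fold change was 1.59 ± 0.19 (3.01-fold; edgeR adjusted p = 5.1e-05). After LPS the groups overlapped, with 1083, 1128 and 1144 CPM in libraries labelled KO against 1110, 1045 and 904 CPM in WT at T6, and differences of 0.13 ± 0.18, 0.07 ± 0.20 and 0.16 ± 0.18 at T6, T16 and T32 (edgeR adjusted p = 0.92, 0.87 and 0.72). The change of the difference from T0 was tested itself: it was -1.46 ± 0.26 to T6, -1.52 ± 0.27 to T16 and -1.43 ± 0.26 to T32 (edgeR adjusted p = 0.036, 0.030 and 0.014), where 0.101%, 0.0697% and 0.387% of all genes were called (0.095%, 0.0444% and 0.298% lower, 0.00634%, 0.0253% and 0.0887% higher), and the joint test of the 3 changes gave an adjusted p of 0.015 (0.456% of all genes). The joint call and the change to T32 passed without any single library, whereas the change to T6 was not called without each of 17 libraries, nor that to T16 without each of 10 (-1.27, edgeR adjusted p = 0.23, without WT T16 replicate 2). The gene lies on chromosome 2 at 173206612 to 173218923 on the minus strand (GRCm38).

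Mlkl, the pore-forming executioner of necroptosis, was higher at T0 too. It had 50.6, 30.9 and 45.6 CPM in libraries labelled KO, against 22.9, 29.4 and 25.2 CPM in WT. Values of the groups were fully separated, but KO-labelled replicate 2 lay close to the highest WT library. The log2 fold change was 0.72 ± 0.17 (edgeR adjusted p = 0.028), and without KO-labelled replicate 1 or 3, or without WT replicate 1 or 3, it was 0.57 to 0.71 and not called (edgeR adjusted p = 0.11 to 0.21). At T32 it had 145, 156 and 149 CPM in libraries labelled KO against 97.3, 83.0 and 125 CPM in WT, a log2 difference of 0.56 that was not called (edgeR adjusted p = 0.051), and averaged over times it was higher by 0.53 ± 0.09 (edgeR adjusted p = 2.3e-04). Neither kinase of the route was called in the average: Ripk1 came to 0.18 and Ripk3 to 0.12. Mlkl overlaps Gm45712, and Ripk1 overlaps Serpinb6a, on the opposite strand.

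The inflammatory caspases Casp1 and Casp4 lie next to each other on chromosome 9, at 5298517 to 5307265 and 5308828 to 5336783 on the plus strand (GRCm38). Casp1 had 487, 396 and 548 CPM in libraries labelled KO at T16, against 243 and 353 CPM in WT. T32 values were 341, 393 and 385 CPM in libraries labelled KO, against 197, 188 and 238 CPM in WT. The groups did not overlap at either time, and the log2 fold change was 0.68 ± 0.20 at T16 (edgeR adjusted p = 0.044) and 0.84 ± 0.18 at T32 (0.0067). At T0 Casp1 had 132, 113 and 112 CPM in libraries labelled KO against 87.2, 68.2 and 80.3 CPM in WT, a difference of 0.60 that was not called (edgeR adjusted p = 0.10). The difference at T32 was 0.78 and not called without WT T32 replicate 2 (edgeR adjusted p = 0.051). Without WT T16 replicate 1 the T16 value was 0.43 (edgeR adjusted p = 0.20), and 8 single libraries each ended that call when left out. On average over times Casp1 was higher by 0.59 ± 0.09 (edgeR adjusted p = 1.4e-04).

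Casp4 was called at 3 of the 4 times. At T0 it had 60.6, 57.6 and 55.8 CPM in libraries labelled KO, against 41.1, 34.3 and 35.1 CPM in WT. At T16 it had 175, 131 and 198 CPM in libraries labelled KO, against 90.1 and 117 CPM in WT. At T32 it had 146, 162 and 157 CPM in libraries labelled KO, against 87.1, 86.2 and 113 CPM in WT. Again no libraries overlapped at these times, and Casp4 was higher by 0.66 ± 0.16, 0.70 ± 0.18 and 0.70 ± 0.16 on the log2 scale (edgeR adjusted p = 0.031, 0.021 and 0.0099). At T0 the call was lost without KO-labelled replicate 1, 2 or 3 or WT replicate 2 or 3 (0.61 to 0.68, edgeR adjusted p = 0.058 to 0.14), at T16 without KO-labelled replicate 1 or 3 or either WT replicate (0.53 to 0.90, edgeR adjusted p = 0.065 to 0.096), and at T32 without WT replicate 1 or 2 (0.64 and 0.63, edgeR adjusted p = 0.056 and 0.071). On average Casp4 was higher by 0.56 ± 0.08 (edgeR adjusted p = 7.3e-05). The adaptor Pycard was lower on average by -0.41, and neither gene of the membrane lesion was called: Gsdmd came to 0.10 and Ninj1 to -0.06. The call on Pycard was lost without WT T16 replicate 2 (-0.29, edgeR adjusted p = 0.052), and Pycard overlaps Gm45205 on the opposite strand.

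Of the 6 sensors, 4 were higher and 1 lower on average, and 1, Nlrc4, was not called at 0.00. Nlrp1b was called at T32 and in the average. T32 values were 19.7, 22.2 and 15.8 CPM in libraries labelled KO, against 43.1, 44.8 and 36.7 CPM in WT. Every KO-labelled library lay below every WT library, and the log2 fold change was -1.11 ± 0.30 (0.462-fold; edgeR adjusted p = 0.029). That call was lost without any of KO-labelled T32 replicates 1, 2 and 3 or WT T32 replicates 1 and 2 (-0.99 to -1.23, edgeR adjusted p = 0.067 to 0.14). Averaged over times the difference was -0.77 ± 0.15 (edgeR adjusted p = 0.0015). The 4 sensors higher on average were Naip2, which recognises the rod of bacterial secretion systems, by 0.63, Naip6 by 0.55 and Naip5 by 0.30, both of which bind flagellin, and Nlrp3 by 0.30 (edgeR adjusted p = 0.020, 0.0051, 0.035 and 0.045). The Naip genes are close copies of each other, so the split of reads between them is uncertain, and Nlrp3 and Naip5 lost the call without each of 17 and 11 single libraries, among them WT T16 replicate 2 (0.20 and 0.29, edgeR adjusted p = 0.15 and 0.076). Naip2 was not called without that library either (0.62, edgeR adjusted p = 0.054), and with libraries scaled by totals neither Naip2 (0.45) nor Naip6 (0.36) was called (edgeR adjusted p = 0.055 and 0.056).

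Cflar had the lowest adjusted p of the members in the average between genotypes. It lies on chromosome 1 at 58711508 to 58758884 on the plus strand, upstream of Casp8 at 58795374 to 58847503 (GRCm38). At T16 it had 649, 529 and 640 CPM in libraries labelled KO, against 357 and 306 CPM in WT. At T32 it had 548, 584 and 546 CPM in libraries labelled KO, against 308, 287 and 390 CPM in WT. No overlap was seen between the groups, and the log2 fold change was 0.87 ± 0.16 at T16 (edgeR adjusted p = 0.0040) and 0.77 ± 0.14 at T32 (0.0029). At T0 and T6 the differences were 0.43 and 0.39 and not called, and on average it was 0.61 ± 0.07 (edgeR adjusted p = 1.3e-05). The T16 call on Cflar was lost without WT T16 replicate 2, which leaves 1 WT library at that time. Casp8 itself was higher on average by 0.28 (edgeR adjusted p = 0.0026), a call lost with libraries scaled by totals (0.11, edgeR adjusted p = 0.15). The adaptors Fadd and Tradd were not called, at 0.13 and -0.17, nor were the inhibitors of apoptosis proteins Birc2 at 0.13, Birc3 at 0.04 and Xiap at 0.44.

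The promoters of 31 members could be matched to RefSeq promoters of GRCm38.p6, as 43 windows of 300 bases (250 before to 50 after the annotated start), the others being Tradd, Gsdmd, Pmaip1 and Zbp1. A script searched both strands for an interferon-stimulated response element (GAAA, any 2 bases, GAAA), a gamma-activated site (TTC, any 3 bases, GAA) and a kappaB site (GGGA, any 2 bases, TTCC). The first was found in the windows of Cflar and Ripk1, that is 4.7% of the members' windows and 3.44% of all 32851 promoters. The second was found in 1 window, of Ripk1, or 2.3% against 8.3% of all promoters, and the third in none of the members' windows, against 1.47% of all. Only this form of a kappaB site was searched. The Casp4 windows hold gggatttccc, a close form that the search does not match, so no absence of kappaB sites is read from it. Both Cflar and Ripk1 are shown, since they hold the element: Cflar was called between genotypes at T16 and T32, and Ripk1 at no time. Capitals mark the matches, and in Ripk1 the last 2 matches overlap.
Cflar promoter, chr1:58711241-58711540, plus strand: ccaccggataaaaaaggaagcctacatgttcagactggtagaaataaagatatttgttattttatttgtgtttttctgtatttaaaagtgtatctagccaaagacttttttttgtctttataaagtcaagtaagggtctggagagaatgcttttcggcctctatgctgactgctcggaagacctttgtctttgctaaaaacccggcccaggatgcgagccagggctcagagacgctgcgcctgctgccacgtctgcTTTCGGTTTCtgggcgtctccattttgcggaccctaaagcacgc
Ripk1 promoter, chr13:34002624-34002923, plus strand: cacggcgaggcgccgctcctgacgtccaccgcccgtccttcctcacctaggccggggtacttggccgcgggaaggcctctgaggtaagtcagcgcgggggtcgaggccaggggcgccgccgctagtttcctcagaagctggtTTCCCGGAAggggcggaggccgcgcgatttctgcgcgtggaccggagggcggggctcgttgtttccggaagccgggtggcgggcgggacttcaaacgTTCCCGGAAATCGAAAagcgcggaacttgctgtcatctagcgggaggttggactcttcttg
The match in Cflar is on the opposite strand at position 6 after the start, and the match in Ripk1 reads GAAATCGAAA at position -5. The 2 gamma-activated matches in Ripk1 lie at positions -108 and -11. These are descriptions of letters in a window, and a missing match says only that the letters are not there.

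Of the 4 BH3-only genes, whose products trigger mitochondrial apoptosis, 2 were higher and 1 lower on average. Pmaip1 had 16.4, 15.9 and 16 CPM in libraries labelled KO at T16, against 9.66 and 7.73 CPM in WT. T32 values were 16.4, 23.1 and 18.2 CPM in libraries labelled KO, against 10.1, 11.4 and 13.6 CPM in WT. Values of the groups were fully separated at these times, and the log2 fold change was 0.89 ± 0.20 at T16 (edgeR adjusted p = 0.012) and 0.72 ± 0.17 at T32 (0.015), but -0.03 at T0 and -0.41 at T6, not called. At T0 it had 17.5, 21.5 and 19.8 CPM in libraries labelled KO, against 18.6, 23.4 and 18 CPM in WT, with overlap. The joint test of the change of the difference from T0 passed (edgeR adjusted p = 0.039), while the changes of -0.38, 0.92 and 0.75 to T6, T16 and T32 did not pass singly. The joint call was lost without each of 17 of the 23 libraries (edgeR adjusted p = 0.054 to 0.099). The T16 call was lost without WT T16 replicate 2, which leaves 1 WT library at that time. The T32 call was lost without KO-labelled T32 replicate 2 or WT T32 replicate 1 or 2 (0.57 to 0.70, edgeR adjusted p = 0.075 to 0.12). Bcl2l11 was higher on average by 0.42 (edgeR adjusted p = 3.5e-04), and Bbc3 was lower by -0.43 (edgeR adjusted p = 0.016). Without WT T16 replicate 2 the average of Bbc3 was -0.32 and not called (edgeR adjusted p = 0.077). The average of Pmaip1 was not called without that library or without KO-labelled T32 replicate 2 (0.25 and 0.26, edgeR adjusted p = 0.075 and 0.052).

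Of the other genes of the family, Mcl1 was higher on average by 0.27, Bak1 was higher by 0.21 and Bax was lower by -0.35 (edgeR adjusted p = 0.0086, 0.027 and 0.040). The calls on Bax and Bak1 were lost without each of 17 and 4 single libraries, and those on Mcl1 and Bak1 with libraries scaled by totals (0.10 and 0.04). Bid came to 0.20, Bcl2l1 to 0.19 and Bcl2 to -0.06, and none of these was called. Bak1 overlaps Ggnbp1, and Bid overlaps Bcl2l13, on the opposite strand.

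Apaf1 binds cytochrome c released from mitochondria and recruits caspase-9. Apaf1 had 98.8, 98.2 and 99.0 CPM in libraries labelled KO at T16, against 73.5 and 43.8 CPM in WT. The KO-labelled values lay above both WT values, and the log2 fold change was 0.75 ± 0.18 (edgeR adjusted p = 0.015). The lower WT value belongs to replicate 2, and without it the difference was 0.42 and not called (edgeR adjusted p = 0.28). On average Apaf1 was higher by 0.42 ± 0.08 (edgeR adjusted p = 8.7e-04), whereas Casp9 and the executioner Casp6 (0.07) were not called.

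Mdm2 showed the largest called difference of the members at T16. It had 357, 307 and 382 CPM in libraries labelled KO at T16, against 210 and 158 CPM in WT. At T32 it had 315, 342 and 341 CPM in libraries labelled KO, against 194, 163 and 206 CPM in WT. The groups did not overlap, and the log2 fold change was 0.92 ± 0.18 at T16 (edgeR adjusted p = 0.0051) and 0.83 ± 0.16 at T32 (0.0036), beside 0.20 and 0.44 at T0 and T6, not called. In libraries labelled KO the level at T16 and T32 was close to T0 (log2 fold changes of 0.04 and -0.03, not called), whereas in WT it fell below T0, by 0.69 and 0.66. The change of the difference from T0 was 0.73 and 0.63 at T16 and T32 and did not pass (edgeR adjusted p = 0.29 at both). The T16 call on Mdm2 was lost without WT T16 replicate 2, which leaves 1 WT library at that time. On average Mdm2 was higher by 0.60 ± 0.08 (edgeR adjusted p = 4.5e-05).

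**Figure D4:**
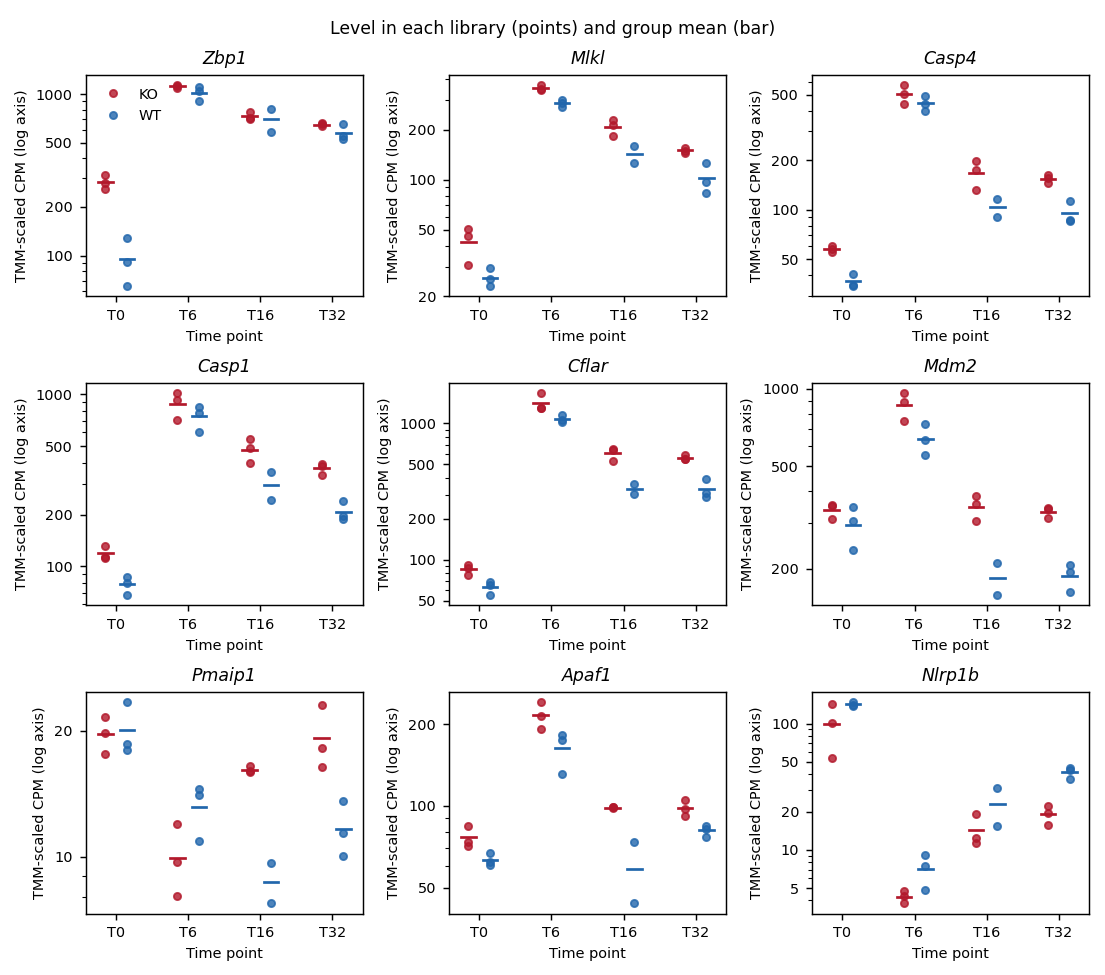
TMM-scaled CPM (log axis) of 9 members in every library at T0, T6, T16 and T32, with libraries labelled KO in red left of WT in blue and a bar at each group mean; WT at T16 has 2 points. Zbp1 is separated at T0 alone, Cflar, Mlkl and Apaf1 at each time, and Nlrp1b runs lower in libraries labelled KO at T32.

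WT at T16 had 2 libraries, so leaving out either leaves 1, whose spread is then assumed to be that of the other groups. Which members were called at T16 depended on the WT library kept, so effect sizes are given for these fits. Calls over all genes tested at T16 also moved when single libraries were left out. In a fit to the T16 libraries alone, none passed, and the log2 values were 0.66 to 0.90. The members Cflar, Mdm2, Pmaip1, Casp4 and Casp1 had differences of 0.73 to 0.97 without WT T16 replicate 2, and Apaf1 0.42. Casp1 and Casp4 were not called at T16 without KO-labelled T16 replicate 1 or 3 (edgeR adjusted p = 0.11 and 0.15 for Casp1, 0.074 and 0.096 for Casp4). Leaving out together the 4 libraries that stand apart, or the 4 WT libraries that held Y-linked transcripts, leaves 1 WT library at T16. No count of calls is given for these 2 settings, and both were chosen after seeing the data.

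Marker genes of several cell types were measured beside these differences. The 8 macrophage markers summed to 17290 to 24937 CPM in libraries labelled KO and 14320 to 18961 CPM in WT at T0, but lay lower without overlap at T16 (20280 to 21373 CPM against 22475 to 26701 CPM) and at T32 (19984 to 21145 CPM against 22419 to 24162 CPM), with Fcgr1 called higher at T0 and Cd14 lower at T32. Neutrophil and precursor markers (9 genes, all present) summed to 610 to 708 CPM in libraries labelled KO and 325 to 615 CPM in WT at T0, to 582 to 709 CPM and 307 to 528 CPM at T6, to 303 to 377 CPM and 136 to 327 CPM at T16, and to 85.7 to 133 CPM and 49.9 to 70 CPM at T32, with Ly6g called at T0 and Ltf at T32. Stromal markers (5 genes) summed to 80.0 to 221 CPM in libraries labelled KO and 361 to 392 CPM in WT at T16, where WT had 2 libraries. The groups overlapped at T0 (40.4 to 68.5 CPM and 27.0 to 196 CPM), T6 (54.2 to 146 CPM and 38.1 to 208 CPM) and T32 (58.8 to 225 CPM and 44.1 to 420 CPM). The part of these cells in the results was not tested. T, B and NK cell, erythroid and dendritic cell markers were near 0, with sums of at most 3.74, 1.28 and 3.87 CPM.

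Other genes of these pathways were examined as a wider list of 76, of which 75 were in the table by that symbol and 70 were tested. Between genotypes, 4 (5.71%, beside 1.95% of all genes) were higher in libraries labelled KO at T0: Mefv, the pyrin inflammasome sensor, by 0.93, the receptor of double-stranded RNA Tlr3 by 1.19, the death ligand gene Tnfsf10 by 1.61 and Nod2, a sensor of bacterial cell wall fragments, by 0.59 (edgeR adjusted p = 0.0017, 0.0099, 0.029 and 0.045). At T6 edgeR called 0 of 70, with 12 at an unadjusted p under 0.05 (9.45% of all genes), and DESeq2 called 5. At T16, 9 were higher and 0 lower (7.64% of all genes called), led by Aim2, the sensor of cytosolic DNA, by 0.74, Tnfaip3, an inhibitor of NF-kappaB signalling, by 0.96, Tlr3 by 1.10 and Nod2 by 0.65. At T32, 6 were higher and 2 lower (6.39% of all genes called), led by Dfna5, which encodes gasdermin E, by 1.28, Traf1 by 1.08, Tnfrsf1b by 0.86 and Tnfaip3 by 0.80 (edgeR adjusted p = 3.6e-04, 0.0038, 0.0085 and 0.012). On average, 19 of 70 were higher and 7 lower (22.3% of all genes called). Chosen after their values were seen, the p53 gene Trp53 and its target Cdkn1a were lower on average, at -0.28 and -0.25 (edgeR adjusted p = 0.029 and 0.043). They were picked from the 70 tested, and other p53-related genes of the list are not given. No direction of p53 signalling is read from them.
With LPS at T6, 34 rose and 24 fell in libraries labelled KO (58.6% of all genes called), and 33 rose and 24 fell in WT (59.1%). Among those with the lowest adjusted p in WT, Traf1, an adaptor of tumour necrosis factor receptors, rose by 5.60, Tnfaip3 by 4.7 and Nod2 by 3.56.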

How the data were processed

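RNA was sequenced from 23 libraries of mouse BMDMs prepared with a TruSeq RNA v2 kit, which does not mark strand. The deposited counts are whole-number reads per gene, made by the authors; the submitters' processing notes name GSNAP (an aligner) and GRCm38. Which counter and annotation were used is not stated. The deposited RPKM values (nRPKM) equal plain RPKM times 1 factor per library (0.594 to 1.393), as computed from the authors' files. Library totals were 19455080 to 44097733 counts, so intervals and tests rest on counting and on the spread between libraries.

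Genes passing edgeR's filter on low counts (15782) were tested with edgeR 4.0.16 (R 4.3.3), TMM factors and the quasi-likelihood test over all 23 libraries, with 1 coefficient per group and Benjamini-Hochberg adjustment over all genes tested; the threshold was 0.05. The average contrast weighs the 4 times equally. The script was tested on simulated data. Alternatives were DESeq2 1.42.0, libraries scaled by totals, no filter, edgeR without its robust option, and only the groups compared. Others were a covariate for Y-linked transcripts, each library left out, and 2 omissions chosen after seeing the data. Full values are given for members called between genotypes in at least 2 contrasts or in the joint test, and for the 3 largest rises and falls at T6 in WT. The members and lists were chosen with earlier results of these data known. The labels carry no replicate numbers, so no block was fitted.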

Additional observations from a re-analysis of the deposited data

Results flagged for a closer look

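The genotype difference of Zbp1 changed over the LPS time course, by the joint test of the changes from T0 to T6, T16 and T32 (edgeR adjusted p = 0.015). It was 1.59 at T0 and 0.13, 0.07 and 0.16 at the later times. Pmaip1 also passed the joint test (edgeR adjusted p = 0.039), with differences of -0.03 at T0, -0.41 at T6, 0.89 at T16 and 0.72 at T32. That call was lost without each of 17 single libraries, and no single change from T0 passed, whereas the joint call on Zbp1 passed without any single library.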

How the results depend on the processing

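Counts of members called between genotypes moved with the tool, the scaling and the libraries kept. At T0, 3 members were called, against 5 with DESeq2, 1 with libraries scaled by totals and 1 with only the libraries of the groups compared. At T6 the count was 0, against 2 with DESeq2. The 6 called at T16 became 11 with DESeq2, 0 with only the groups compared, 10 without the 4 libraries that stand apart and 0 without the 4 with Y-linked transcripts. The 6 at T32 became 16 with only the groups compared and 17 without the 4 that stand apart. The 20 of the average became 13 with totals, and the 2 of the joint test became 1 with totals. The cause of these shifts was not tested, and they are not read as particular to the members.

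Leaving out single libraries gave 1 to 3 members at T0, 0 at T6, 0 to 12 at T16, 2 to 7 at T32, 13 to 21 in the average and 1 to 3 in the joint test. In WT under LPS the counts were 24 to 31 at T6, 19 to 23 at T16 and 22 to 28 at T32, and in libraries labelled KO 23 to 30, 18 to 23 and 19 to 21. Over all genes tested, calls at T6 also moved, from 8207 to 9703 in WT and from 8255 to 9664 in libraries labelled KO. At T32 they moved from 5910 to 7913 in WT and from 4425 to 6769 in libraries labelled KO, and at T16 from 5349 to 7446 in libraries labelled KO.

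With libraries scaled by totals, 8 LPS results at T6 reversed: Mcl1 in WT (-0.125), Naip6 in libraries labelled KO (-0.15) and WT (-0.126), Pycard in libraries labelled KO (-0.018), Ripk1 in libraries labelled KO (-0.382) and WT (-0.353), and Ripk3 in libraries labelled KO (-0.2) and WT (-0.339). Of the 20 average calls, 9 (Apaf1, Bcl2l11, Casp1, Casp4, Cflar, Mdm2, Mlkl, Nlrp1b and Zbp1) passed under each of 30 alternatives. Of the single-time calls, Zbp1 at T0 and Cflar and Mdm2 at T32 passed under each of 31. No paired analysis was run, because the labels carry no replicate numbers and do not say which libraries, if any, share a mouse.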
